A study of Homo sapiens with 4 samples.

Results

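The red blood cell miRNAs hsa-miR-486-5p, hsa-miR-486-3p, hsa-miR-451a, hsa-miR-144-3p and hsa-miR-144-5p were followed in cortical interneurons with and without ethanol. They are 5 of the 2656 mature miRNAs in the deposited count table, and each had a row there. They were taken by name, and both miR-486 arms were chosen by their ethanol contrast in these same libraries, which an earlier look had shown. miR-451a and the miR-144 arms were added as the best known miRNAs of the red cell lineage, to see whether they move with miR-486. The values of the ethanol contrast are therefore given for the members as a description and without a test. The cells came from the human embryonic stem cell line H1 and were differentiated in culture into cortical interneurons, the inhibitory nerve cells of the cortex. In the exposed group 2 cultures had ethanol at around 50 to 100 mM in the maturation medium for 7 days, and in the unexposed group 2 cultures were kept for 7 days without it. The methods describe a further 24 h without ethanol before collection, and duplicate cultures of 1 cell line, so that the spread between replicates is that of cultures and not of donors.

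A miRNA is cut from a hairpin precursor, and either strand of the hairpin (the 5p and the 3p arm) can be loaded into an Argonaute protein, where its seed, bases 2 to 8, pairs with target mRNAs. The genes of miR-144 and miR-451a lie side by side in 1 transcription unit that the transcription factor GATA1 drives in erythroid cells, and miR-451a is known for maturation through slicing by AGO2 without Dicer. Both accumulate to very high levels in maturing red cells, where miR-451a targets the 14-3-3 zeta transcript YWHAZ and miR-144-3p restrains the antioxidant factor NRF2. miR-486-5p is also abundant in red cells, but it is known from heart and skeletal muscle as well, where its host gene ANK1 is active. In nerve cells the best known miRNAs are others, such as miR-9 and miR-124.

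The arms of miR-144 and the other miRNAs of its gene cluster are shown because their counts, near 0 or at 0, stand far from those of miR-486. miR-101-3p is shown beside them because it begins like miR-144-3p. Sequences are those of RefSeq on GRCh38.p14, written 5′ to 3′, with the seed in capitals.
miR-144-5p: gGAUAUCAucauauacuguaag
miR-144-3p: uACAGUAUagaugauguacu
miR-101-3p: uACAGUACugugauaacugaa
miR-4732-5p: uGUAGAGCagggagcaggaagcu
miR-4732-3p: gCCCUGACcuguccuguucug
miR-144-5p lies on the minus strand at chr17:28861583-28861604, and miR-144-3p at chr17:28861548-28861567. miR-144-3p and miR-101-3p (copy MIR101-2, chr9:4850345-4850365, plus strand) share their first 7 bases, so they share bases 2 to 7 but not the whole seed. No other counted miRNA with a RefSeq sequence had bases 2 to 7 in common with either miR-144 arm. In GENCODE 29 the MIR144 precursor (86 bases) is 92 bases from MIR451A and 36 bases from MIR4732, all on the minus strand and within exonic sequence of the long noncoding RNA gene AC024267.1. MIR451B lies on the opposite strand of MIR451A.

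The libraries held between 12100425 and 24858230 counts of mature miRNAs, and each exposed library was deeper than each unexposed library, so depth and exposure coincide. Levels are given in CPM, the counts per 1000000 counts of the library, either plain or after TMM scaling, which sets the bulk of the miRNAs level between libraries. A mature miRNA is read along its whole length, so levels were not divided by length. Of the 10 neuron markers all were counted in every library. miR-9-5p was the most abundant, at 175900 ± 23290 CPM (TMM-scaled, SD, n = 2) in exposed and 205700 ± 68350 CPM in unexposed cells, before miR-7-5p and miR-128-3p. The summed level of the 10 markers, by plain library size, was 351300 and 388000 CPM in exposed and 413900 and 395400 CPM in unexposed libraries. This sum is mostly miR-9-5p and miR-7-5p. The 10 markers had no common direction, and nothing is read from the lower sums of the exposed libraries.

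hsa-miR-486-5p was the one abundant miRNA among the 5. The exposed libraries held 11328 and 11342 counts of it and the unexposed libraries 3576 and 3741, and its place among all miRNAs by count was between 95 and 116. After TMM scaling these were 449 and 466 CPM in exposed and 303 and 291 CPM in unexposed cells. Replicates lay close together and the groups did not overlap, but miR-486-5p was chosen on this contrast, so neither is support for it. The log2 difference between replicates was -0.053 in exposed and 0.060 in unexposed cells. The SD of this difference across the 863 tested miRNAs was 0.461 and 0.691, but most of these had fewer counts and so a larger counting error.

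hsa-miR-486-3p, the other arm of the same hairpin, was counted 1518 and 1285 times with ethanol and 248 and 497 times without. The TMM-scaled levels were 60.2 and 52.8 CPM in exposed and 21.0 and 38.6 CPM in unexposed cells. Both exposed libraries were above both unexposed ones, and unexposed replicate 1 was the lowest by a wide step. MIR486-1 and MIR486-2 overlap over 64 bases on opposite strands within an intron of ANK1 on chromosome 8 (GENCODE 29), so the counts of either arm cannot be assigned to 1 of the genes.

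hsa-miR-451a, the miRNA most typical of red cells, was rare. With ethanol it was counted 12 and 16 times, and without ethanol 6 times and 1 time. The shares in exposed cells were 0.540 CPM, with a 95% Wilson interval from 0.309 to 0.944, and 0.644 CPM (0.396 to 1.05). In unexposed cells they were 0.430 CPM (0.197 to 0.939) and 0.0826 CPM (0.0146 to 0.468). A count of 3 was taken as the least that can be told from 0, which is between 0.121 and 0.248 CPM, so miR-451a was above that floor in 3 of the 4 libraries. Without molecular identifiers in the reads, these intervals and this floor describe the error of counting and no other error.

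hsa-miR-144-5p was counted 30 and 26 times with ethanol and 24 and 5 times without, and it was above the floor in all 4. Its share in exposed cells was 1.35 CPM, with a 95% Wilson interval from 0.946 to 1.93, and 1.05 CPM (0.714 to 1.53). It was 1.72 CPM (1.16 to 2.56) and 0.413 CPM (0.177 to 0.967) in unexposed cells. The unexposed libraries were thus the highest and the lowest of the 4. hsa-miR-144-3p, the arm with the known red cell targets, had 1 count in each library but unexposed replicate 2, where it had 0 of 12100425 counts. In that library the floor of 3 counts is 0.248 CPM, and the upper 95% Wilson limit of miR-144-3p was 0.3175 CPM. miR-144-3p was at or under the floor in every library.

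**Figure D1:**
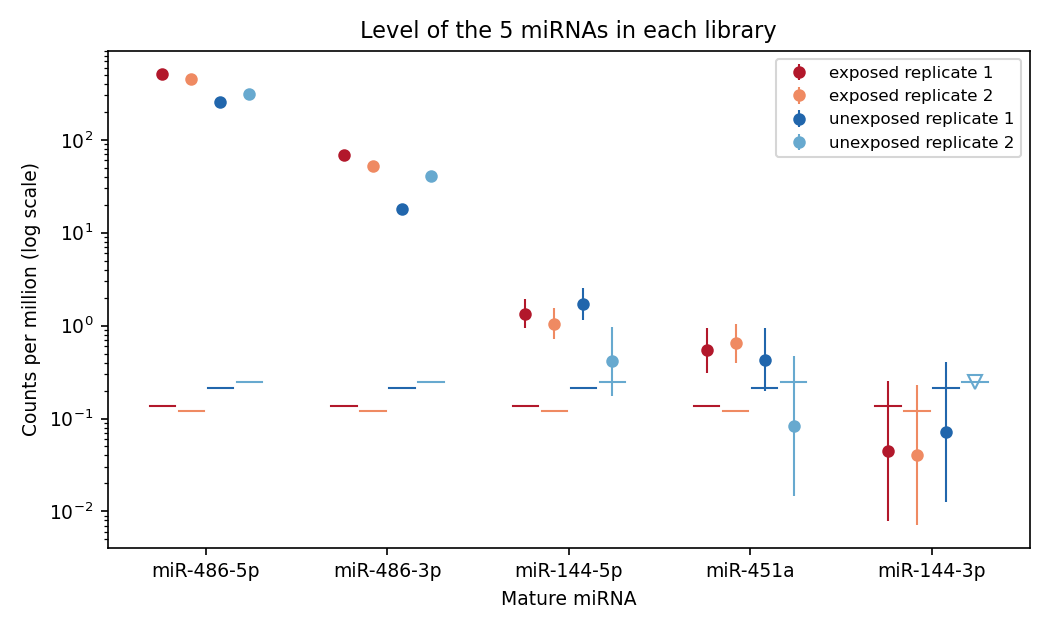
CPM (log axis, plain library size) of the 5 miRNAs in the 4 libraries, with 95% Wilson intervals. Short lines mark the level of 3 counts in each library and the open triangle a count of 0. Both miR-486 arms stand far above these lines in every library, with miR-486-5p between 256 and 510 CPM. miR-144-5p lies above them in 4 libraries, at up to 1.72 CPM, and miR-451a in 3, at up to 0.644 CPM. miR-144-3p lies under them.

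The order of the levels, miR-486-5p, miR-486-3p, miR-144-5p, miR-451a, miR-144-3p, held for the counts in 4 of 4 libraries, but in unexposed replicate 2, with 1 and 0 counts, miR-451a and miR-144-3p were both under the floor and their order there cannot be told. miR-486-5p had between 7.46 and 14.4 times the counts of miR-486-3p, and miR-486-3p between 10.3 and 99.4 times those of miR-144-5p. The step from miR-144-5p to miR-451a was smaller, between 1.63 and 5 times. Their mean TMM-scaled levels over the 4 libraries were 1.17 ± 0.676 and 0.430 ± 0.248 CPM (SD, n = 4), and their ranges overlapped. The miR-486 arms made up between 99.2% and 99.9% of the summed counts of the 5 members. miR-451a and the miR-144 arms together came to 43 counts in each exposed library and to 31 and 6 counts in the unexposed libraries.

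The rest of the gene cluster was not detected. miR-451b, miR-4732-5p and miR-4732-3p had 0 counts in all 4 libraries. Levels under the floor of 3 counts, 0.121 CPM in the deepest library, cannot be told from 0. miR-101-3p, with the start shared with miR-144-3p, was on the other hand common, with 33677 and 33434 counts in exposed and 19528 and 21449 counts in unexposed cells. Its TMM-scaled level was 1335 and 1373 CPM against 1655 and 1667 CPM, or -0.29 ± 0.20 as log2 fold change with its standard error. After TMM scaling miR-101-3p was lower in the exposed cells, but by plain library size its groups overlapped, and nothing is read from this difference. How reads that fit several miRNAs were shared out is not given in the sources used here.

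The arms of both hairpins were unequal. The 5p arm took 89.4% of the counts of both miR-486 arms over the 4 libraries (95% Wilson interval 89.1 to 89.7%). By library this share was 88.2% (87.6 to 88.7%) and 89.8% (89.3 to 90.3%) in exposed cells, and 93.5% (92.7 to 94.3%) and 88.3% (87.3 to 89.2%) in unexposed cells. Unexposed replicate 1 was the one apart, and the other unexposed library lay within the range of the exposed ones. For miR-144 the 5p arm had 85 of the 88 counts, or 96.6% (90.5 to 98.8%), and it led in each library.

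Of the 5 members 3 passed the filter on low counts and entered edgeR's quasi-likelihood fit over all 863 miRNAs. For miR-486-5p the level was 457 ± 11.8 CPM (TMM-scaled, SD, n = 2) in exposed and 297 ± 8.78 CPM in unexposed cells, a fold of 1.54 and the rank 55 from the highest log2 fold change. For miR-486-3p it was 56.5 ± 5.24 CPM against 29.8 ± 12.4 CPM, a fold of 1.89 and the rank 19. Their log2 fold changes were 0.62 (standard error 0.20) and 0.92 (standard error 0.33). The quartiles of all tested miRNAs were -0.24 and 0.25. For miR-144-5p the level was 1.13 ± 0.0859 CPM in exposed and 1.21 ± 1.16 CPM in unexposed cells, which gave -0.074 on the log2 scale (standard error 0.60). The 2 miR-486 arms were higher in exposed cells with an unadjusted P under 0.05, as were 2.55% of all miRNAs tested, and nothing is read from this count, since the arms were chosen on it. The same arms were those with both exposed above both unexposed libraries, which held for 18.8% of all miRNAs tested. In the list of tested miRNAs ordered by P, those just inside the threshold were miR-1260a and miR-4488, with log2 fold changes of 0.85 and 0.79, and those just outside were miR-98-3p and miR-6505-3p, with 0.73 and 0.86. Of the 863 miRNAs 39 had an unadjusted P under 0.05, and 0 had a Benjamini-Hochberg adjusted p under 0.05 in edgeR. In limma-voom and DESeq2 31 and 28 had an unadjusted P under 0.05, and again 0 an adjusted one, while 6 had one in edgeR with at least 1 count in any library and 1 to 18 with 1 library left out. With 2 cultures against 2, a two-sided exact permutation test of 1 miRNA cannot give a p below 0.333. In bulk RNA, fewer cells of a type and less of a miRNA per cell cannot be told apart.

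Single libraries mattered more for the rare members. Without unexposed replicate 1 the log2 fold change of miR-144-5p was 1.52, with an unadjusted P under 0.05, and without unexposed replicate 2 it was -0.88. With limma-voom it was 0.31, with library size only 0.13 and with the replicate number as a block 0.08, so its direction turned with the method. For miR-451a, which did not pass the filter, the 28 exposed counts were 0.595 CPM and the 7 unexposed counts 0.269 CPM. This is a ratio of 2.21, with an exact conditional 95% interval of 0.944 to 6 that covers counting error only. Without unexposed replicate 2, with its single count, the ratio was 1.38 (0.561 to 4.08), and without unexposed replicate 1 it was 7.20 (1.19 to 294). For miR-144-3p, at or under the floor in every library, no fold is given. miR-486-3p also leaned on 1 culture: its log2 fold change was 0.54 without unexposed replicate 1, where its P was above 0.05, and 1.39 without unexposed replicate 2. That of miR-486-5p was between 0.56 and 0.65 with any 1 library left out, with P above 0.05 in 3 of these 4 fits.

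**Figure D2:**
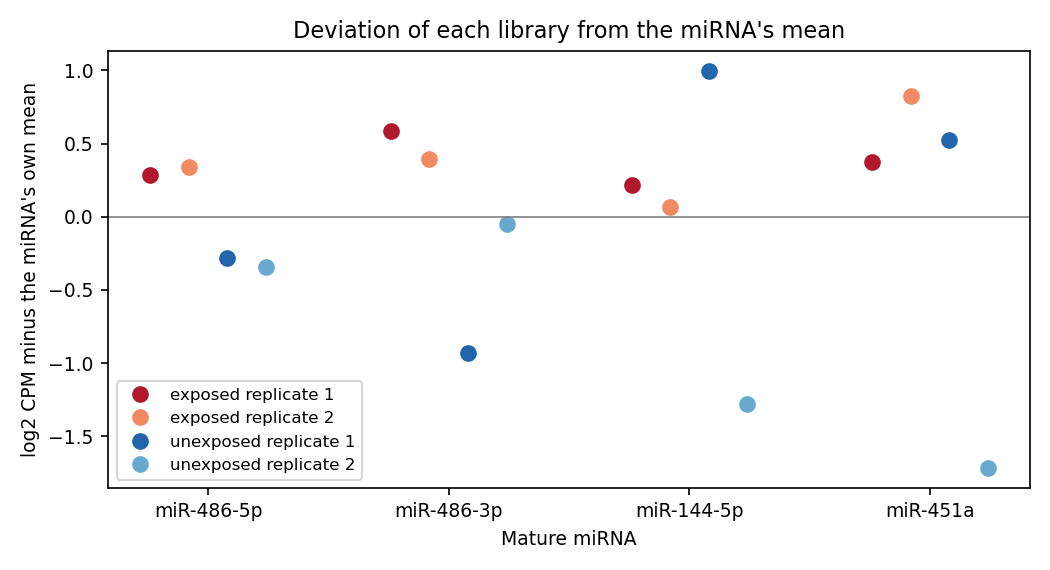
TMM-scaled log2 CPM (0.5 added to each count) of 4 of the miRNAs in each library, minus the miRNA's own mean over the 4 libraries. The miR-486-5p points split by exposure with replicates side by side, while for miR-144-5p (5 to 30 counts) and miR-451a (1 to 16 counts) unexposed replicate 2 is low and unexposed replicate 1 lies among or above the exposed libraries.

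Ratios within a library do not depend on scaling, but those to miR-451a and miR-144-5p rest on few reads. miR-486-5p had 944 and 709 times the counts of miR-451a in exposed cells, and 596 and 3741 times in unexposed cells. The mean log2 ratio was 9.62 ± 0.28 in exposed and 10.19 ± 1.54 in unexposed cells (SD, n = 2), and the exposed libraries lay between the unexposed ones. miR-486-5p had 378 and 436 times the counts of miR-144-5p in exposed cells, against 149 and 748 times in unexposed cells, again with the exposed libraries between the others. For both ratios the unexposed libraries differed from each other by more than the group means did. In unexposed replicate 2 they rest on 1 count of miR-451a and 5 counts of miR-144-5p. With counting error this large, they cannot tell whether miR-486-5p moved with these members. The log2 ratio of miR-486-5p to miR-486-3p was 2.90 and 3.14 in exposed and 3.85 and 2.91 in unexposed cells. The groups overlapped for this ratio too.

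miR-144-5p and miR-451a are encoded side by side. The counts of miR-144-5p were 2.5 and 1.63 times those of miR-451a in exposed and 4 and 5 times in unexposed cells. Both were lowest in unexposed replicate 2, where miR-486-5p had 291 CPM, close to the 303 CPM of the other unexposed library, and where miR-486-3p was higher than in that library. With the counts of miR-451a between 1 and 16, these ratios rest on few reads.

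**Figure D3:**
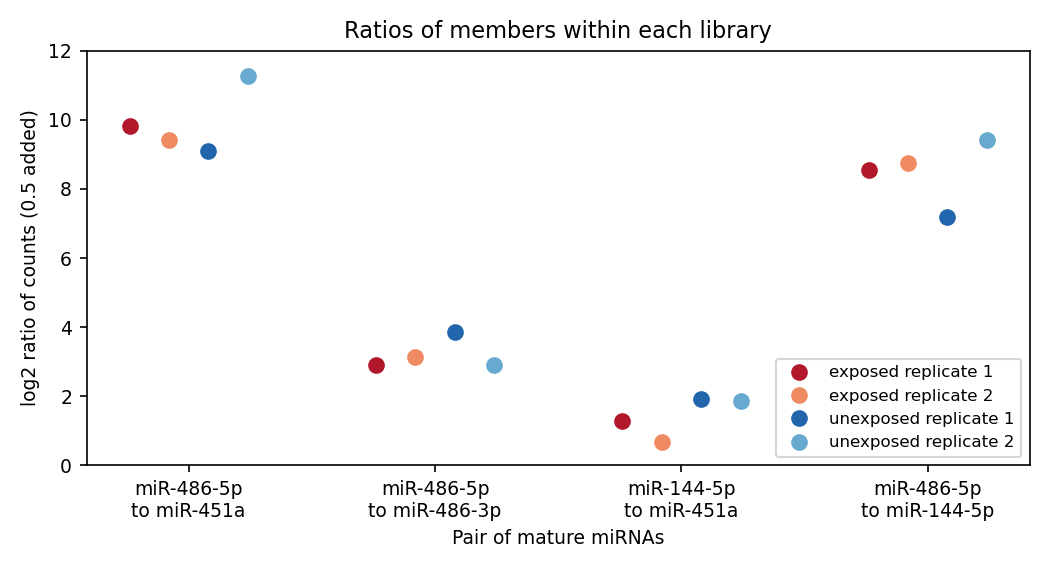
Log2 ratio of the counts of 2 members in each library, with 0.5 added to each count. For miR-486-5p against miR-451a and against miR-144-5p the exposed libraries lie between the unexposed ones (9.42 and 9.82 between 9.10 and 11.28 for miR-451a), and for miR-486-5p against miR-486-3p they overlap with them. For miR-144-5p against miR-451a the exposed libraries lie below. Unexposed replicate 2 had 1 count of miR-451a and 5 counts of miR-144-5p.

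Other miRNAs that are abundant in red cells or their precursors, most of them common in many cell types, had no common direction. All 12 of the list were tested, and 6 had a log2 fold change above 0 and 6 below. 0 of the 12 were higher with an unadjusted P under 0.05 and 1 was lower. Over all 863 tested miRNAs 22 were higher and 17 lower at this threshold, and nothing is read from 1 of 12. The median log2 fold change of the list was -0.046 beside -0.010 over all tested miRNAs. With library size only it was 0.10, beside 0.14 over all. The log2 fold change, with its standard error, was 0.06 ± 0.24 for miR-92a-3p, the most abundant and a close relative of miR-25-3p. It was -0.11 ± 0.27 for miR-25-3p and -0.32 ± 0.28 for miR-93-5p, which come from the same cluster. miR-20b-5p, from the related cluster on the X chromosome, had an unadjusted P under 0.05. Its counts were 1152 and 1570 in exposed and 981 and 1417 in unexposed cells, a TMM-scaled level of 55.1 ± 13.3 against 96.6 ± 19.1 CPM (SD, n = 2). The log2 fold change was -0.81 ± 0.28.

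Of the markers of other blood cells most were at or near 0. miR-142-3p, found in nearly all blood cells, and both arms of miR-223, the miRNA of granulocytes and monocytes, had 0 counts in all 4 libraries. miR-142-5p and miR-150-3p were at no more than 1 count. miR-150-5p, of mature lymphocytes, was counted 11 and 7 times in the deeper exposed libraries and 1 and 3 times without ethanol. Its TMM-scaled level was 0.436 and 0.288 CPM in exposed and 0.0848 and 0.233 CPM in unexposed cells. Both unexposed counts were at or under the floor, so no difference is read from them. Of the 9 markers on this list, 5 were at or under the floor of 3 counts in every library and 3 were tested, none of them with an unadjusted P under 0.05 in edgeR. Those 3 were not of blood alone: the log2 fold change was 0.19 ± 0.21 for miR-126-3p, of endothelial cells and platelets, 0.46 ± 0.28 for miR-126-5p and -0.37 ± 0.29 for the immune-induced miR-155-5p. The summed level of the list, nearly all of it miR-126-3p, was 914 to 1165 CPM in exposed and 763 to 865 CPM in unexposed libraries. Of the red cell markers of the gene cluster, miR-144-5p was above the floor in 4 libraries, at up to 1.72 CPM, and miR-451a in 3, at up to 0.644 CPM. miR-144-3p was at no more than 1 count, and miR-451b and both miR-4732 arms were at 0. The part of other cell types in the level of miR-486 was not tested.

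Muscle markers were looked at because miR-486 is also a miRNA of muscle. Of 7, 3 were at or under the floor in every library, among them miR-133b and both miR-208 miRNAs of the heart muscle myosin genes. miR-133a-3p had between 16 and 40 counts and miR-206, of skeletal muscle, between 12 and 25. miR-1-3p was common, with 4422 and 6468 counts in exposed and 4730 and 3072 counts in unexposed cells, and its log2 fold change was -0.54 ± 0.32. miR-499a-5p, from an intron of MYH7B, had 640 and 674 counts in exposed and 345 and 355 counts in unexposed cells, at -0.10 ± 0.25 on the same scale. Of the 4 tested, 3 had a log2 fold change below 0 and 1 above, with a median of -0.23, and 0 had an unadjusted P under 0.05 in edgeR. The summed level of the list was 231 to 289 CPM in exposed and 286 to 366 CPM in unexposed libraries, most of it miR-1-3p, and the groups overlapped.

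Among the 10 neuron markers 5 were above and 5 below a log2 fold change of 0, with a median of 0.029. miR-124-3p, which is made by nerve cells as they mature, was the 1 with an unadjusted P under 0.05, at 4384 ± 1445 CPM in exposed and 2568 ± 536 CPM in unexposed cells (TMM-scaled, SD, n = 2), or 0.77 ± 0.30 as log2 fold change. Its part in the level of miR-486 was not tested. Over all 863 tested miRNAs 22 were higher with such a P, and nothing is read from 1 of 10. The 3 most abundant neuron markers differed in direction, with log2 fold changes of -0.23 for miR-9-5p, 0.31 for miR-128-3p and -0.64 for miR-7-5p.

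**Figure D4:**
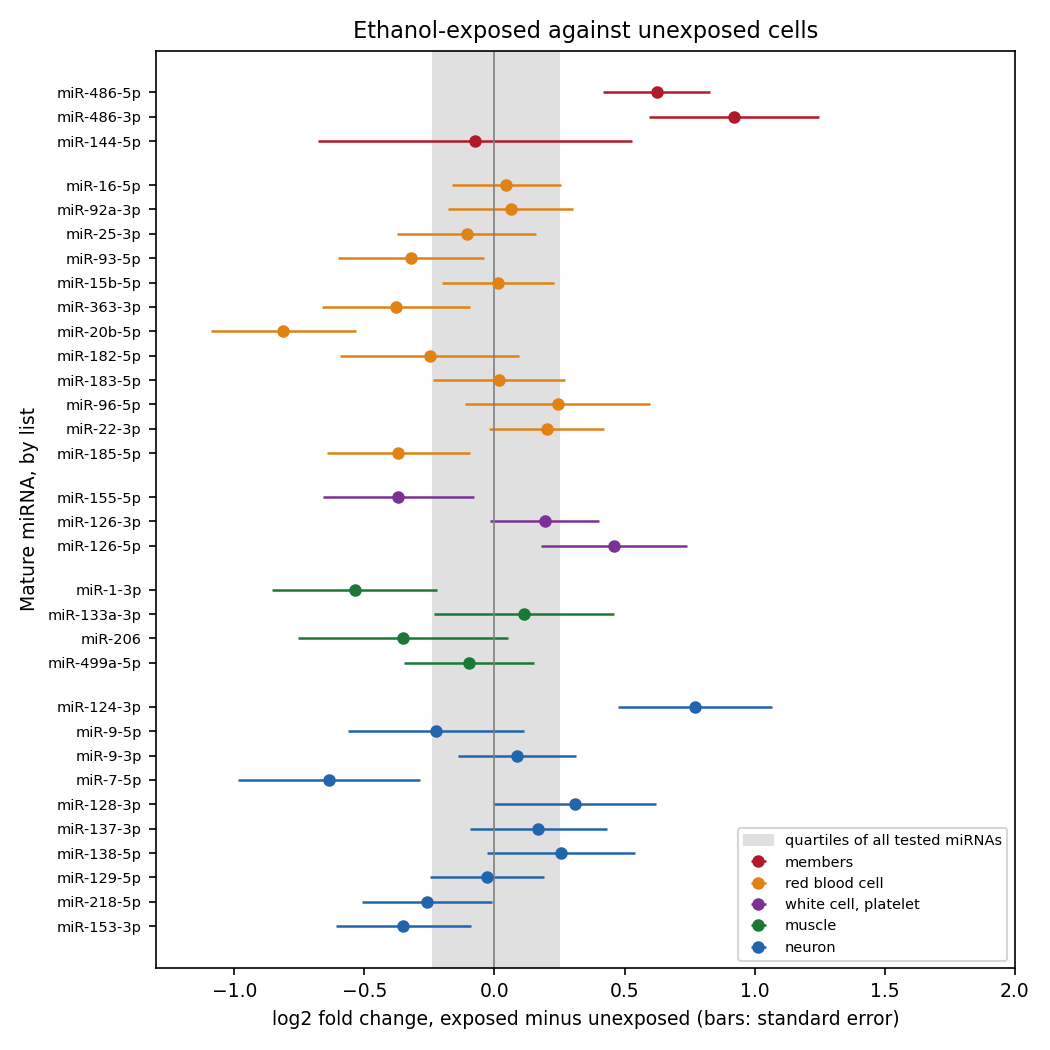
Log2 fold change of exposed against unexposed cells, with edgeR's standard error, for the tested members and for the tested miRNAs of 4 lists. The grey band runs between the quartiles of all 863 tested miRNAs (-0.24 to 0.25). Both miR-486 arms lie to the right of it, miR-144-5p lies inside it with a wide bar, and of the 4 lists the neuron list has 1 miRNA with an unadjusted P under 0.05 on the right, miR-124-3p at 0.77, and the others have 0.

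The miRNAs most like the miR-486 arms in their pattern over the 4 libraries were looked for among 376 tested miRNAs with a mean of at least 10 CPM, so miR-451a and the miR-144 arms, all below that level, could not be among them. The ranking uses the same values on which the miR-486 arms were chosen and is a description. Likeness was taken as the root mean square difference of log2 CPM after centring on each miRNA's own mean, over 4 libraries that share their scaling. The closest to miR-486-5p was miR-1290, at 0.061, with 67.7 and 64.7 CPM in exposed and 40.9 and 42.0 CPM in unexposed cells. miR-375-3p, known from pancreatic islets and other secretory cells, followed at 0.062 and miR-139-3p, whose gene lies within PDE2A, at 0.080. For miR-486-3p the closest were miR-3605-3p at 0.154, miR-92b-3p at 0.174 and miR-1306-3p at 0.219. The miR-486 arms differed from each other by 0.386. By that distance miR-486-3p was in place 209 of the miRNAs most like miR-486-5p, and miR-486-5p in place 21 of those most like miR-486-3p.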

How the data were processed

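Small RNA libraries of 4 cultures were made by the authors with the NEBNext kit and processed with CAP-miRseq. The table the authors deposited holds raw counts, 1 row for each mature miRNA. The submitters' processing notes name the build hg19, while neither the CAP-miRseq version nor the release of the miRNA annotation is given in the sources used here. The table carries no coordinates, so positions come from RefSeq (GRCh38.p14) or GENCODE 29 by name. RefSeq held a mature sequence for 2367 of the 2656 miRNAs and for 2 of the members.

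The counts were compared in edgeR 4.0.16 (R 4.3.3) with filterByExpr (minimum count 10, minimum total 15), TMM factors of 0.846 to 1.13, the quasi-likelihood test without covariates and Benjamini-Hochberg adjustment over 863 miRNAs. Standard errors were derived from its F. Also run were DESeq2 1.42.0, limma-voom with limma 3.58.1, other scalings and filters, a replicate block and fits without each library in turn. The fit was tested on simulated data first. Replicates were no repeated library (chi-square per degree of freedom 795 and 712).

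The members, the marker lists and the rule for naming miRNAs were chosen with earlier results of these data known. Named were the members, list miRNAs above 3 counts and the 3 most alike in pattern. Of the red cell and neuron lists only the 3 most abundant and any with an unadjusted P under 0.05 were named. miRNAs sharing bases 2 to 7 with a miR-144 arm were named as well. The other members had no RefSeq sequence, so miRNAs sharing their seeds were not searched for. The 4 miRNAs nearest the P threshold, and list miRNAs at or under 3 counts, were named after their values were seen. Some sequences are not reported here. The paper's brain and mRNA data were not analysed here.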

Additional observations from a re-analysis of the deposited data

How the results depend on the processing

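Both miR-486 arms kept a log2 fold change above 0 under all 14 alternatives, from 0.52 to 0.77 for miR-486-5p and from 0.54 to 1.39 for miR-486-3p. With 1 library left out, which leaves 1 culture in a group that is then assumed to vary like the other, the range was 0.56 to 0.65 and 0.54 to 1.39, and P was above 0.05 in 3 of these 4 fits for miR-486-5p (all but the one without unexposed replicate 1) and in 2 for miR-486-3p (without exposed or unexposed replicate 1). miR-144-5p, at -0.07, turned to 0.31 with limma-voom, 0.13 with library size only, 0.08 with a replicate block and 0.02 with that block crossed, and ranged from -0.88 to 1.52 with 1 library left out. It could not be fitted with at least 10 counts in every library. The ratio of miR-451a ranged from 1.38 to 7.20 with 1 library left out. Library size only moved the median log2 fold change of all tested miRNAs to 0.14, and upper quartile scaling to -0.12. Relative to these shifts both miR-486 arms were higher under each. The arms were chosen on this contrast, and each alternative refits these same libraries or part of them. Their steady direction is therefore no support for it.

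Of all tested miRNAs 39 had an unadjusted P under 0.05, and this number was 94 with at least 1 count in any library and 25 with a replicate block, and 12 to 109 with 1 library left out. The replicate differences of the groups correlated at -0.186 across miRNAs. This gives no sign that the numbers pair the cultures, but it cannot settle the question. Pairing the cultures crosswise, a choice made after seeing the data, gave 59. The cause of these changes was not tested. Some of these fits also held smaller or larger numbers of miRNAs or libraries. The other 8 alternatives stayed within 1.5 times. Low counts, at 30 or fewer per library, limit what can be said of miR-451a and the miR-144 arms. So does the difference between the unexposed libraries in miR-144-5p.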
